A study of Mus musculus with 2 samples.

Results

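The keratinocytes described here were 71 cells of mouse dorsal skin, selected on their measured keratin counts from 3797 kept cells (1.87%, 95% exact Clopper-Pearson interval 1.46% to 2.35%) among 5257 deposited barcodes. A cell was chosen by 30 or more UMIs per 10000 of Krt14, Krt5, Krt15, Krt1 and Krt10 together, with at least 2 of these keratins detected. It also had under 15 UMIs per 10000 of the complement genes C1qa, C1qb and C1qc and under 50 of the collagen genes Col1a1, Col1a2 and Col3a1. A UMI is a molecular tag that marks a distinct RNA molecule, and cells were kept with 500 genes or more, 1000 UMIs or more and a mitochondrial share of 10% or less.

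The dataset profiled wild-type (WT) male mice aged 9 or 108 weeks that received no treatment. Shaved dorsal skin of 2 mice was pooled for each age, digested with collagenase-A, Dispase-II and DNaseI, and sorted for cells that were F4/80 positive and high for MHC class II. There was 1 droplet library for each age, and the labels name the cell type of both as macrophage. The libraries share 1 matrix and differ by a barcode suffix, but no source used here ties a suffix to an age. They are therefore given side by side as suffix 1 and suffix 2, and nothing is said about age. Each library pools 2 mice, so there is no replicate of an age and no p-value is given. All intervals are 95% intervals that cover counting error only.

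Keratinocytes build the epidermis and its follicles, the outer barrier of skin. Cells of the basal layer sit on a basement membrane, hold it through hemidesmosomes, and express the keratin partners Krt5 and Krt14, with Krt15 in many basal and bulge cells. Cells that leave the basal layer become suprabasal, switch to Krt1 and Krt10, add desmosomes, and end as cornified cells. Keratin filaments assemble from a type I partner (Krt14, Krt15 or Krt10) and a type II partner (Krt5 or Krt1). Keratinocytes of the hair follicle share the basal keratins and add others such as Krt17 and Krt79.

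The start regions of 3 genes that carry the layers are shown, because basal and suprabasal keratin genes separate the cells below. Krt5 lies at chr15:101707070-101712898, Krt10 at chr11:99385254-99389364 and Krtdap, a secreted protein of differentiating keratinocytes, at chr7:30787896-30791097 (GRCm38). The sequences are from RefSeq (GRCm38.p6) and hold the 250 bases before the start annotated there, written 5′ to 3′ on the strand of the gene. For Krt5 and Krtdap that start lies a few bases from the gene bounds given above. Distances below are from the RefSeq start. They cover chr15:101712906-101713155 for Krt5 (minus strand), chr11:99389365-99389614 for Krt10 (minus strand) and chr7:30787655-30787904 for Krtdap (plus strand). Capitals mark matches to a TATA box (TATAAA) or an AP-1 motif (TGANTCA), searched on both strands.
Krt5: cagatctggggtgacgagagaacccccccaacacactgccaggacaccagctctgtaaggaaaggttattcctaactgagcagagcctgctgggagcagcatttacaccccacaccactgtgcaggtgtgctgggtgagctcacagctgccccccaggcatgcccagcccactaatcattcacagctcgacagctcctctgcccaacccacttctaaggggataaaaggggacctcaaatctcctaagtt
Krt10: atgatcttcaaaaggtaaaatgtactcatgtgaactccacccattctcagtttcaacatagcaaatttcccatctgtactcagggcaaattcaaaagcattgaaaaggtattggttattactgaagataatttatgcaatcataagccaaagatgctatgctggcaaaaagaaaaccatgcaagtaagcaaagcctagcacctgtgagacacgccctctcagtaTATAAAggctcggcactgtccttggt
Krtdap: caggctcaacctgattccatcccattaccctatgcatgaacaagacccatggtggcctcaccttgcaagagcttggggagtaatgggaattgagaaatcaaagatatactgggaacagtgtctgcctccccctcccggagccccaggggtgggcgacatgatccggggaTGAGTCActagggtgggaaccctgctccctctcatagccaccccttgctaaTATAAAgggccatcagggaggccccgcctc

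The Krt10 window held TATAAA at bases −26 to −21 from the start. The Krtdap window held it at −30 to −25 and the AP-1 letters at −81 to −75. The Krt5 window held neither these letters nor the AP-2 letters GCCNNNGGC. Of all 32817 RefSeq promoter windows, which here run 250 bases upstream, 12.4% held TATAAA, 6.75% TGANTCA and 13.7% GCCNNNGGC. The respective shares were 10.6%, 12.3% and 13.6% for genes at least 4-fold higher in suprabasal-leaning cells (186 of 236 genes matched, 235 windows). They were 9.71%, 4.33% and 25.3% for genes at least 4-fold higher in basal-leaning cells (433 of 551 genes matched, 577 windows). The shares over all windows include genes not measured in these cells, and shares over the measured genes alone were not computed. A difference from all windows is thus not tied to a layer. These shares describe letters in the windows and say nothing of a factor's binding.

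Depth was high. The keratinocytes held a median of 21444 UMIs (range 1137 to 204057) and a median of 4141 genes, against a median of 10831 UMIs in the 3726 other kept cells. In 22 of the 71 cells the count exceeded 40000 UMIs, as it did in 75 of the other cells. The median mitochondrial share was 6.53%. Suffix 1 held 47 keratinocytes of 2396 kept cells (1.96%) and suffix 2 held 24 of 1401 (1.71%), with median depths of 22709 and 21401 UMIs. The libraries shared 1 barcode, which belonged to no keratinocyte. A doublet caller marked 6 of the 3797 cells (0.158%) and none of the 71, so doublets count as untreated.

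The cells did not carry the labelled macrophage identity. Levels are given as CPM, the UMIs of a gene summed over the cells of a group and scaled to 1000000 UMIs. Adgre1, which encodes F4/80, had 10 UMIs in all 71 cells, or 3.68 CPM, against 508 CPM in 1149 macrophage-rule cells. The latter had 15 or more C1q UMIs per 10000 and stayed under the keratin and collagen limits. The summed level of 11 macrophage markers was 107 CPM in keratinocytes, 141.5 in suffix 1 and 47.6 in suffix 2, and 15742 CPM in macrophage-rule cells. All 11 markers were at least 4-fold lower than in the other kept cells. The F4/80 protein, on which the sort relied, was not measured in these data.

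A wide gap lay around the keratin limit. Of the kept cells that met the other criteria, the 3 with the highest keratin sums below the limit had 5.52, 4.66 and 3.85 UMIs per 10000. The 3 lowest keratinocytes had 31.0, 32.7 and 39.3 per 10000, the median keratinocyte 141.5 and the highest 596. Of 72 kept cells past the keratin limit, 1 was dropped because it had a single keratin. No cell was dropped for C1q or collagen, whose sums reached at most 6.07 and 8.80 per 10000 in the keratinocytes.

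The rule keratins are given as a description, since their values chose the cells. Krt14 (chr11:100203162-100207548) stood at 6341 CPM (6246 to 6436), with a lowest, median and highest cell of 0, 43.7 and 194 per 10000. Its level was 4684 CPM in suffix 1 and 9149 in suffix 2, against 5.14 in the other kept cells. Krt5, its type II partner, stood at 3135 CPM and Krt15 (chr11:100131758-100135928) at 3451. Among the cells, Krt5 ran from 0 through 28.2 to 135 per 10000 and Krt15 from 0 through 32.8 to 261. Basal keratins were thus spread over nearly the whole group, with UMIs of Krt14 in 62, Krt5 in 64 and Krt15 in 63 of 71 cells. Krt10 stood at 3030 CPM and Krt1 (chr15:101845426-101850794) at 1065. Both were uneven, with a median cell of 0.275 and 0 per 10000 and a highest cell of 540 and 96.6. UMIs of 3′ libraries are not divided by transcript length, and reads of paralogous keratins may be shared between them.

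**Figure D1:**
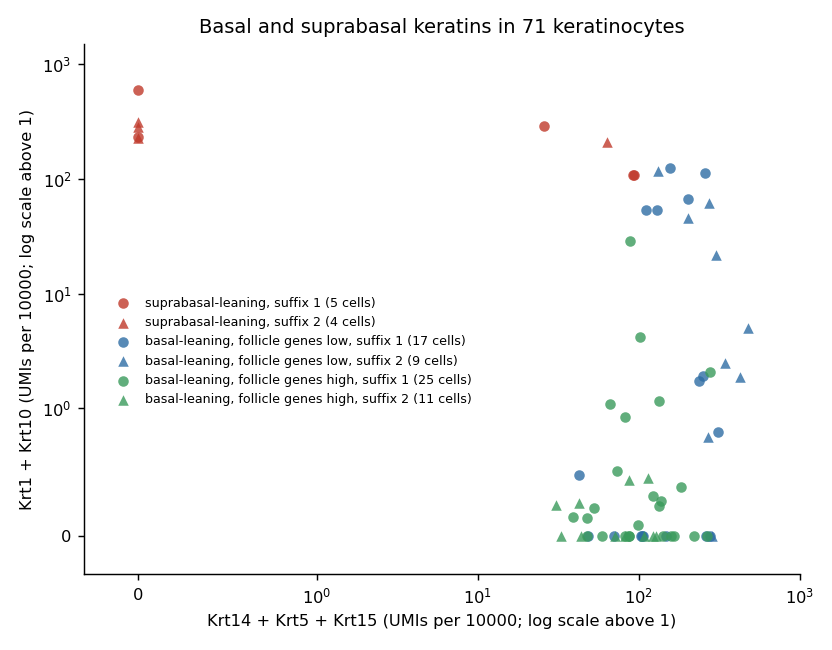
Each point is 1 of the 71 keratinocytes, with basal keratins (Krt14, Krt5 and Krt15) on the horizontal and suprabasal keratins (Krt1 and Krt10) on the vertical axis, both in UMIs per 10000 on a scale that is logarithmic above 1. Circles are suffix 1 and triangles suffix 2, and 5 suprabasal-leaning cells lie at 0 on the horizontal axis, and most basal-leaning cells lie at or near 0 on the vertical axis.

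Most cells leaned basal. A cell was called suprabasal-leaning where Krt1 and Krt10 held over 0.5 of its UMIs of the 5 keratins. This is a range of a score and not a cell type. It took 9 of 71 cells (12.7%, 5.96% to 22.7%), 5 of 47 in suffix 1 and 4 of 24 in suffix 2. In 52 cells the suprabasal share was at most 0.05, in 5 it was over 0.99, and 9 cells lay between 0.1 and 0.5. The lowest suprabasal-leaning cell had 53.6% and the highest basal-leaning cell 47.3%, and 4 cells lay within 0.1 of the limit. In the plot of the keratins, the cells thus form a dense basal group with a thinner series of mixed cells towards the suprabasal end.

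Shares of cells with a UMI were compared at an equal depth of 2000 randomly drawn UMIs per cell, for which 3 keratinocytes were too shallow. Fibroblast-rule cells, which passed the collagen limit and stayed under the keratin and C1q limits, served as a comparison group. Perp, a desmosomal protein regulated by p63, was then seen in 85.3% of keratinocytes, in 0 of 541 fibroblast-rule cells (interval up to 0.680%, for a UMI among 2000) and in 0.453% of macrophage-rule cells. Its unthinned share was 0.348% in fibroblast-rule and 2.00% in macrophage-rule cells. Sfn, the 14-3-3σ protein of epithelia, was seen in 91.2%, 2.96% and 2.99%, and Trp63, the p63 factor of stratified epithelia, in 32.4%, 0.370% and 0.0907%. Unthinned, the keratinocyte shares of Perp, Sfn and Trp63 were 97.2%, 98.6% and 78.9%, at median depths of 21444, 14255 and 9752 UMIs in the 3 groups. The unthinned shares of Sfn were 13.9% in fibroblast-rule and 16.6% in macrophage-rule cells, and those of Trp63 3.30% and 0.348%. Adgre1 was seen in 1.47% of keratinocytes (0.0372% to 7.92%) and in 61.6% of macrophage-rule cells, with an unthinned share of 12.7% and 93.6%.

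Against the other kept cells, 1141 of 15221 genes with at least 20 UMIs (7.5%) were at least 4-fold higher in keratinocytes and 2067 (13.6%) were at least 4-fold lower. The rule and this comparison used the same cells, so these counts describe the group and nothing is read from them. The median log2 ratio over all genes was 0.036. Outside the rule, the highest ratios fell to Fam25c at 798 CPM (log2 ratio 12.91, 11.68 to 14.53), to Rab25, a small GTPase of epithelia, at 174, and to Fermt1, the integrin activator kindlin-1, at 57.7. Krt77 at 1493 and Krt16 at 346 CPM, both further keratins, were among the 15 genes with the highest ratio, with log2 ratios of 11.18 and 11.02. Lypd3 at 373, Cldn4, a claudin of tight junctions, at 110 and Krt78 at 38.6 CPM belonged to them as well. Pla2g2f, Gm94, Urah, Clca3a2, Prom2, Cfap57 and Cdcp1 completed the 15.

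Some epithelial transcripts were found in most cells. Lgals7, galectin-7, was present in 71 of 71 cells at a lowest, median and highest level of 1.67, 67.8 and 219 per 10000, and at 6857 CPM overall against 11.1 in the other cells (log2 ratio 9.27, 9.15 to 9.40). Sfn stood at 4186 CPM in 70 cells and Ly6d, a surface protein of stratified epithelia, at 1798 in 55. Lgals7 was nearly even between suffix 1 (6420 CPM) and suffix 2 (7597). Fabp5, an epidermal fatty acid binding protein, was less even, at 1702 and 208 CPM, and 1 suffix 1 cell held 1978 of its 3121 UMIs.

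**Figure D2:**
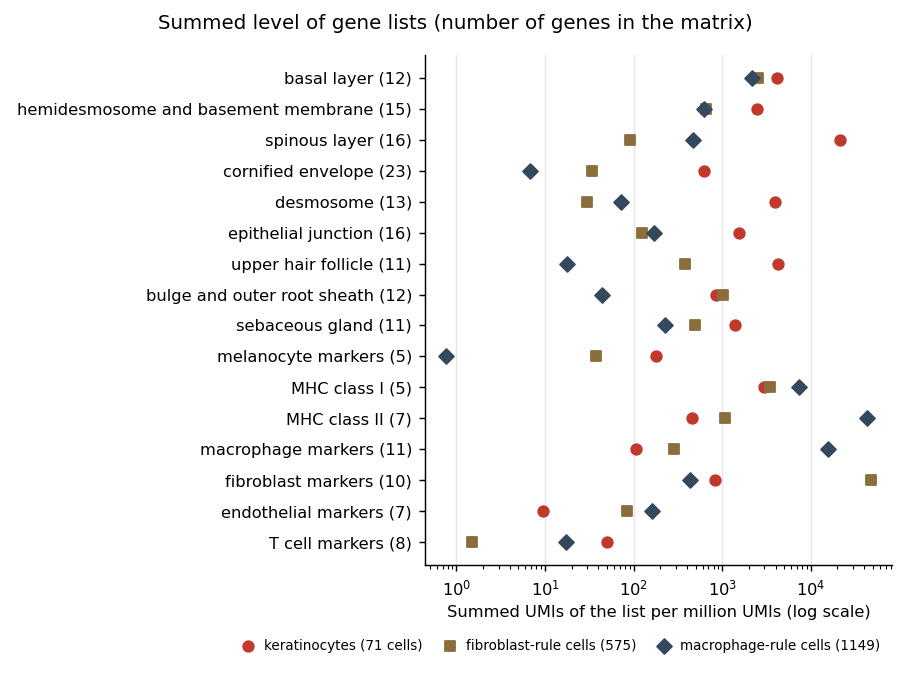
Each row is a gene list, with the number of its genes in the matrix, and the points give the summed UMIs of the list as CPM on a log scale in 71 keratinocytes (circles), 575 fibroblast-rule cells (squares) and 1149 macrophage-rule cells (diamonds). Keratinocytes lie furthest right for the spinous, desmosome and epithelial junction lists, at 21292, 3921 and 1548 CPM, and left of both for MHC class II, macrophage and endothelial lists.

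Genes that fix basal cells to the basement membrane stood high. Of 15 genes of hemidesmosomes and their basement membrane, 10 were at least 4-fold higher than in the other kept cells and none was lower, with a median log2 ratio of 3.15. Col17a1, the transmembrane collagen of hemidesmosomes, stood at 627 CPM (598 to 658) against 1.37, with a lowest, median and highest cell of 0, 5.68 and 32.2 per 10000. Integrin α6β4 is the laminin receptor of the hemidesmosome, and its chains Itga6 and Itgb4 stood at 426 and 153 CPM against 54.3 and 11.9. The laminin chains Lama3 and Lamb3 stood at 51.5 and 89.0 CPM. Col7a1 of the anchoring fibrils was at 33.5. The more widely used Plec and Itgb1, at 256 and 136 CPM, lay at log2 ratios of −0.22 and −0.89. The counts were 9 of 15 in suffix 1 and 8 of 13 in suffix 2.

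A list of vascular and general basement membrane genes leaned the other way. Of 13 genes of that list, 7 were at least 4-fold lower and 3 higher, with a median log2 ratio of −2.07. Col4a1 and Col4a2, the common collagen IV chains, stood at 25 and 15.4 CPM against 226 and 109 in the other cells, and Nid1, nidogen, at 6.25 against 98.1. The higher genes were Col4a5 and Col4a6, the collagen IV chains of epithelial basement membranes, at 14.7 and 12.9 CPM, and Agrn, agrin, at 71. Lama5, a laminin chain of epithelial and vascular membranes that is counted in both lists, stood at 29.4 against 9.42. Within suffix 1 the counts were 6 lower and 3 higher of 13, within suffix 2 they were 8 and 1 of 12, and without cells over 40000 UMIs 4 and 2 of 12.

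Cell-cell adhesion genes were at the same end. Of 11 measured desmosome genes, 10 were at least 4-fold higher and none was lower, with a median log2 ratio of 9.34. Perp stood at 1479 CPM, Dsp, the desmoplakin that ties desmosomes to keratin, at 663, and Jup, plakoglobin, at 549. Dsc3, Dsg1a and Dsg3, the cadherins of the desmosome, stood at 395, 218 and 124 CPM against 0.250, 0.166 and 0.125 in the other cells. Of 15 measured genes of adherens and tight junctions, 9 were higher and none lower. Epcam stood at 389 CPM, Cdh1, E-cadherin, at 206 and Cldn1 at 205, while Tjp1 lay at 37.5 against 35.6. These counts were 10 of 10 and 9 of 10 for desmosomes in suffix 1 and suffix 2, and 9 of 14 and 8 of 13 for the junctions.

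Transcription factors of epithelia followed. Of 15 measured factors, 13 were at least 4-fold higher and none lower, with a median log2 ratio of 6.90. Trp63 (chr16:25683763-25892102) stood at 243 CPM (225 to 262) against 0.562, with a lowest, median and highest cell of 0, 1.67 and 8.88 per 10000. Gata3, a factor of epidermis and hair, stood at 237 and Ovol1 at 225 CPM. Tfap2a and Tfap2b of the AP-2 family stood at 124 and 83.5. Klf4, a barrier factor that many cell types share, was highest of the list at 1812 CPM but was 975 in the other cells and 1883 in fibroblast-rule cells, a log2 ratio of 0.89.

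The suprabasal-leaning cells had higher levels of genes of the differentiating layers. Compared with the 62 basal-leaning cells, 236 of 8658 genes (2.73%) were at least 4-fold higher in the 9 suprabasal-leaning cells and 551 (6.36%) were at least 4-fold lower. The median log2 ratio was −0.20. Because Krt1 and Krt10 split the cells and all values come from the same cells, the ratios below are descriptions. The deepest of the 9 suprabasal-leaning cells held 96523 of their 235325 UMIs. It also held 1545 of their 3124 Krt77 UMIs, so their summed levels lean on this cell. Of 14 measured spinous layer genes, 8 were higher and none lower, and of 11 cornified envelope genes 8 were higher and none lower, with median log2 ratios of 2.11 and 2.95. Within suffix 1 the spinous count was 7 of 13 and the cornified count 6 of 8, and within suffix 2 they were 5 of 12 and 1 of 5. Without the cells over 40000 UMIs they were 7 of 12 and 2 of 4.

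Krtdap was the most complete example. It ran from 68.1 through 151 to 231 per 10000 in the 9 suprabasal-leaning cells and from 0 through 0 to 74.1 in the basal-leaning cells, so the groups overlapped at their edges. Its summed level was 15468 against 1019 CPM (log2 ratio 3.92, 3.85 to 4.0). Krt77 stood at 13275 against 376 CPM (5.14), and its 9 cells ran from 3.58 through 62.7 to 374 per 10000. Sbsn, suprabasin, stood at 7904 against 540 (3.87) and Dmkn, dermokine, at 4929 against 1174 (2.07). Mt4, a metallothionein of stratified epithelia, was found in 8 of the 9 cells at 1122 CPM, against 87.4 in the basal-leaning cells. Lgals7 and Sfn of the same list differed less, with log2 ratios of 1.13 and 0.36.

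Cornified envelope genes were far lower in level. Asprv1, the protease that processes filaggrin, stood at 404 CPM in suprabasal-leaning cells against 18.9 (log2 ratio 4.42, 3.9 to 4.95), and 69 of its 142 UMIs came from 1 cell. Abca12, the lipid transporter of lamellar granules, stood at 161 against 20.9, and Ivl, involucrin, at 89.2 against 6.04 from 36 UMIs in all. Lor, loricrin, had 24 UMIs in 14 keratinocytes and Flg, filaggrin, had 0 UMIs, as did Rptn. A count of 0 allows up to 3 UMIs among the 2719172 UMIs of the keratinocytes. Of proteases and inhibitors, 4 of 15 were higher and 1 lower, the higher including Spink5, which inhibits kallikreins, at 697 against 51.9 and its target Klk5 at 149 against 5.64 CPM. These counts were 4 and none of 13 in suffix 1, 1 and 1 of 11 in suffix 2, and 1 and none of 8 without cells over 40000 UMIs. The deepest suprabasal-leaning cell alone held 105 Spink5 UMIs.

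Desmosomal cadherins split between the layers. Dsg1a stood at 1088 CPM in suprabasal-leaning against 136 in basal-leaning cells (log2 ratio 3.0, 2.76 to 3.24), and Dsg1b at 76.5 against 8.05 (3.25). Dsg1a and Dsg1b are closely similar copies between which reads may be shared. Dsg3 stood at 25.5 against 133 (−2.39, −3.84 to −1.25) and Dsg2 at 8.50 against 43.5 (−2.36, −5.42 to −0.47). The list gave 2 genes past 4-fold in each direction, against 3 and 0 of 10 in suffix 1 and 0 of 9 in suffix 2. The intervals of Dsg2 and Dsg3 are wide because the suprabasal-leaning cells held 2 and 6 of their UMIs. Dsp at 1679 against 567 and Perp at 3973 against 1243 CPM stayed below 4-fold. Perp ran from 21.5 through 32.05 to 62.5 per 10000 in the 9 suprabasal-leaning cells, above the basal-leaning median of 10.1.

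**Figure D3:**
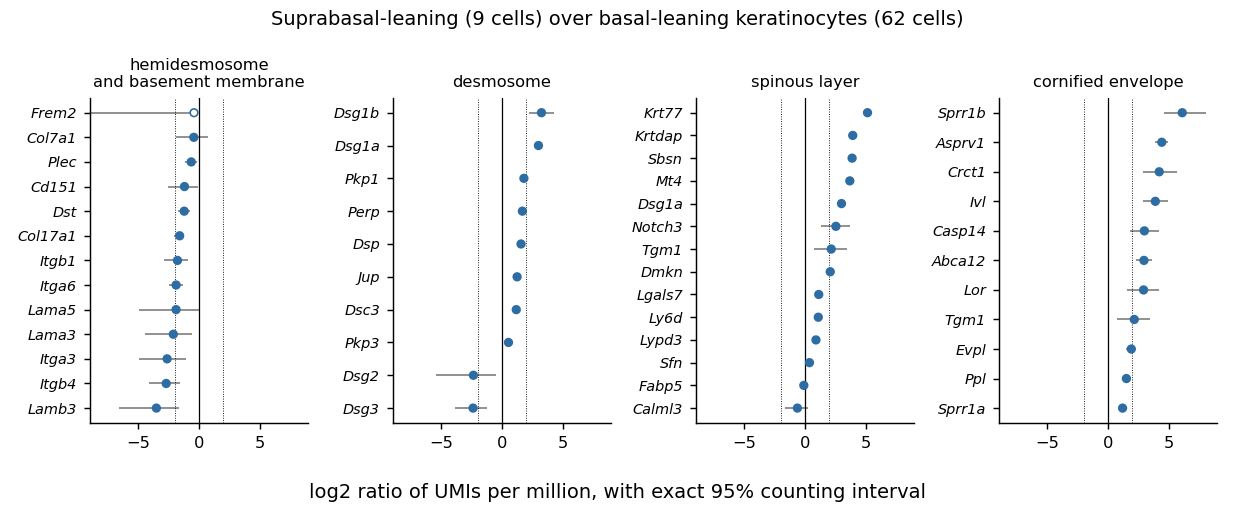
Points give the log2 ratio of CPM in 9 suprabasal-leaning over 62 basal-leaning cells for measured genes of 4 lists, 1 gene left out, lines the exact 95% counting interval, and dotted lines 4-fold. Hemidesmosome genes lie left of 0, spinous and cornified genes mostly right of 0, and the desmosomal genes Dsg1a and Dsg1b lie opposite to Dsg2 and Dsg3; the open circle is a bound with 0 UMIs in 1 group.

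The basal-leaning cells had higher levels of some anchoring genes. Of 14 measured hemidesmosome genes, 5 were at least 4-fold lower in suprabasal-leaning cells and none was higher, and of 11 basal layer genes 4 were lower. Itgb4 stood at 165 CPM in basal-leaning and 25.5 in suprabasal-leaning cells (log2 ratio −2.70, −4.15 to −1.56). Lamb3 stood at 96.6 and 8.50 (−3.51, −6.56 to −1.64), Itga3 at 78.5 and 12.7, and Cd44 at 403 and 85.0. Col17a1 at 666 and 221 CPM and Itga6 at 455 and 123 kept below 4-fold. The hemidesmosome count was 2 of 14 in suffix 1, 7 of 13 in suffix 2 and 3 of 12 without cells over 40000 UMIs, and the basal layer count 1 of 11 and 6 of 11 in the libraries. Median depths of the suprabasal-leaning cells were 24961 and 6465.5 UMIs in these libraries, against 21775.5 and 28969 in the basal-leaning cells, and their part in the counts was not tested.

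Beyond the lists, the highest ratios for suprabasal-leaning cells fell to Krt78 at 391 against 5.23 CPM (6.22), Gm94 at 2188 against 41.9 (5.71) and Krt77. Tesc, Them5, Mboat2, Skint9, Cysrt1 and Clic3 followed with log2 ratios from 4.08 to 4.62. At the basal end stood Fst, follistatin, with 1 UMI in the suprabasal-leaning cells and 1305 in the others (−6.95, −12.25 to −4.47). Sox9 (chr11:112782224-112787760), a factor of follicle stem cells, also had 1 UMI against 1117 (−6.73, −12.03 to −4.24), and Ptn, pleiotrophin, 1 against 1085. Krt17 (chr11:100256217-100261029) had 13 against 5575 UMIs (−5.34) and Krt79 (chr15:101929332-101940324) 0 against 1189. With the 0 set to 3 counts, Krt79 gives a log2 ratio of −5.23 or lower. Sox9, Krt17 and Krt79 are known as genes of the hair follicle.

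A further split of the basal-leaning cells was added after these values were seen. Cells with 10 or more UMIs per 10000 of Krt17, Krt79 and Sox9 together were called high in follicle genes, and 14 of the 62 cells lay between 5 and 20. The high range held 36 cells (25 in suffix 1 and 11 in suffix 2) and the low range 26 (17 and 9), with median depths of 24968.5 and 17129 UMIs. Krt17 ran from 0.218 through 17.6 to 232 per 10000 in the high cells, and Sox9 from 0 through 6.45 to 18.6. Krt79, a keratin of the follicle opening, was found in 14 of the 36 cells and reached 45.8 per 10000. These 3 genes made the split and carry no finding.

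Between these ranges, 425 of 8400 genes (5.06%) were at least 4-fold higher and 93 (1.11%) at least 4-fold lower in the cells high in follicle genes, with a median log2 ratio of 0.088. The split was chosen with these values in view, so the shares are descriptions. Of 8 other measured genes of the upper follicle, 6 were at least 4-fold higher and 1 lower. Fst stood at 784 against 7.25 CPM (log2 ratio 6.76, 5.63 to 8.21), Defb6, a β-defensin, at 479 against 6.04 (6.31, 5.08 to 7.94), and Lrig1, a marker of upper follicle stem cells, at 59.8 against 3.62. Gata6, a factor of the sebaceous duct, had 80 against 1 UMI (5.32, 2.80 to 10.64). Klk10 was the lower gene, at 1.81 against 83.3 CPM (−5.52, −7.84 to −3.92). The counts were 6 of 7 with none lower in suffix 1 and 5 of 7 with 1 lower in suffix 2.

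Genes of the bulge varied with the cells included. Of 9 measured genes, 2 were at least 4-fold higher, Tcf7l1 at 26 against 3.62 CPM and Barx2 at 99.0 against 24.2. Lhx2, a bulge factor, lay just short of 4-fold at 166 against 42.3 CPM (1.97, 1.46 to 2.53). Lgr5, Lgr6 and Cd34, markers of follicle stem cells, lay at log2 ratios of 0.87, −0.07 and −0.31. The count of 2 was 1 of 8 in suffix 1, 4 of 5 in suffix 2, 0 of 5 without cells over 40000 UMIs and 4 of 9 without the 3 cells high in Cidea described next. Cd34 also stood at 17.3 CPM in the keratinocytes against 203.5 in the other cells, the lower member of its list in the comparison with those cells.

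Lipid genes of the sebaceous gland formed a small group. All 8 measured genes were at least 4-fold higher in the cells high in follicle genes, but this rested on 3 cells. Those cells, singled out after the values were seen, held 1121, 378 and 163 UMIs of Scd1, stearoyl-CoA desaturase, and 211, 83 and 15 of Cidea, a lipid droplet protein. They also held 210, 125 and 111 UMIs of Krt79 and 536, 278 and 110 of Mgst1. Without them, 0 of 3 measured genes was past 4-fold. In the comparison with the other kept cells, 5 of 9 genes of the list were higher and none lower with these cells, with a median log2 ratio of 2.16. Without them 0 of 6 were higher and 3 lower, with a median of −2.01. The counts were 7 higher and none lower of 9 in suffix 1, 1 and 2 of 6 in suffix 2, and 3 and 2 of 8 without cells over 40000 UMIs.

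The cells low in follicle genes had higher levels of some surface and differentiation genes. Mt4 had 0 against 217 UMIs, a log2 ratio of −7.18 or lower with 0 set to 3 counts. A single low cell with a suprabasal share of 30.4% held 126 of these UMIs. The low range also held most cells with a suprabasal share between 0.1 and 0.5, and their part in the values of this paragraph was not tested. Ly6a, the stem cell antigen Sca-1, stood at 21.7 CPM in the high cells and 354 in the low cells (−4.02, −4.57 to −3.52), with UMIs in 13 of 36 and 18 of 26 cells. Thy1 stood at 3.62 and 80.9, Sox6 at 4.23 and 65.2, and Ndufa4l2 at 27.8 and 708 CPM. Il1r2, the decoy receptor of interleukin-1, stood at 1.21 and 67.6, and Il20ra at 1.21 and 43.5. Of 13 spinous genes 5 were at least 4-fold lower in the high cells and 2 higher, the higher being Calml3 at 105 against 7.25 and Fabp5 at 1638 against 187. The 3 cells high in Cidea held 1978, 583 and 38 of the 2713 Fabp5 UMIs in the high range. Without them Fabp5 was the lower one in that range, at 82.2 against 187 CPM (log2 ratio −1.19, −1.55 to −0.83), and 1 of 12 spinous genes was higher and 5 lower. Without cells over 40000 UMIs the counts were 1 and 4 of 12, and the median log2 ratio of the list was 0.095 instead of −0.99. Krt1 and Krt10 stood at 137 and 274 in the high cells and at 1735 and 3075 in the low cells.

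**Figure D4:**
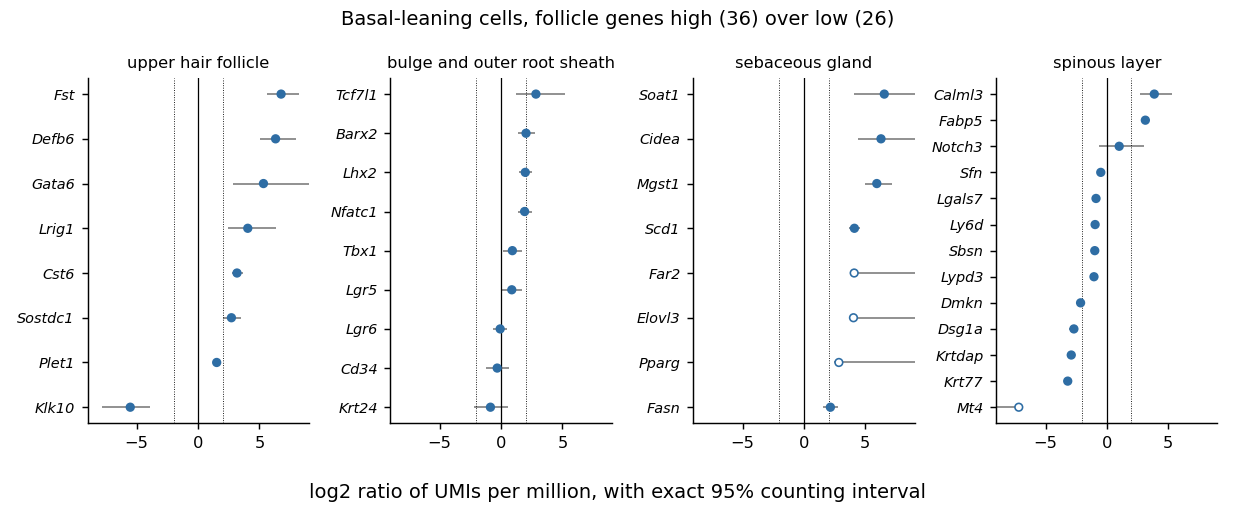
Points give the log2 ratio of CPM in 36 basal-leaning cells high in follicle genes over 26 low cells for measured genes of 4 lists, lines the exact 95% counting interval, dotted lines 4-fold and open circles bounds with 0 UMIs in 1 group. Upper follicle and sebaceous genes lie right of 0 except Klk10. Bulge genes lie near 0 or right of it except Krt24 at −0.86, from 11 against 10 UMIs, and most spinous genes lie left of 0.

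Keratin partners were not balanced in every cell when counted over the 5 rule keratins alone. The ratio of type I (Krt14, Krt15 and Krt10) to type II UMIs (Krt5 and Krt1) ran from 0.0279 to 169 over the 69 cells with type II UMIs, with a median of 3.05 and quartiles of 2.10 and 4.30. It was narrow in the cells low in follicle genes, from 1.86 through 2.60 to 5.09, and wide in the high cells, from 0.0279 through 3.49 to 169. In 4 cells it was below 1. These cells held 117, 350, 1200 and 636 UMIs of the type I keratin Krt17. With Krt17 and Krt16 added to type I, and Krt79, Krt77, Krt78, Krt6a, Krt8 and Krt2 to type II, the ratio ran from 1.08 through 2.64 to 17.4 over 70 cells. No cell was then below 1, and 3 rather than 6 were above 10. The added keratins were chosen after the single cells were seen.

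Cytokine and growth factor genes of the epidermis were uneven. Of 25 measured cytokines and growth factors, 10 were at least 4-fold higher than in the other kept cells and 4 lower, with a median log2 ratio of 0.56. Over all measured genes the shares were 7.5% and 13.6%, so the lower count was near the general share. Ccl27a, a chemokine that attracts T cells to skin, stood at 915 CPM against 5.87 (7.29, 7.11 to 7.47), with a lowest, median and highest cell of 0, 5.10 and 66.4 per 10000. Cxcl14, a chemokine of epithelia, stood at 559 against 65.2, and after thinning it was seen in 41.2% of keratinocytes, 14.4% of fibroblast-rule and 0.544% of macrophage-rule cells. Fgfbp1, which carries fibroblast growth factors, stood at 169 against 0.104 and the ligands Wnt4 and Wnt10a at 188 and 75.4 against 5.10 and 3.60. Hbegf, a ligand of the EGF receptor, was at 473 against 176 and stayed below 4-fold. The counts were 11 higher and 4 lower of 25 in suffix 1, 7 and 3 of 24 in suffix 2, and 9 and 2 of 24 without cells over 40000 UMIs.

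The ligands of the macrophage receptor CSF1R differed from each other. Il34, by which keratinocytes maintain Langerhans cells, stood at 23.9 CPM in keratinocytes, 10.6 in fibroblast-rule and 0.458 in macrophage-rule cells. After thinning it was seen in 4.41% of keratinocytes (0.919% to 12.4%) against 2.40% of fibroblast-rule cells. The unthinned shares, at unlike depths, were 25.4% and 9.74%. The thinned keratinocyte share rests on 3 cells, too few to decide on a difference at this depth. Csf1 stood at 6.99 CPM in keratinocytes and at 906 in fibroblast-rule cells. Among 2000 UMIs per cell it was seen in 0 of 68 keratinocytes (interval up to 5.28%) against 56.7% of fibroblast-rule cells, and the unthinned shares were 18.3% and 82.4%. Il18 had 0 UMIs. The alarmins Il33 and Tslp stood at 44.5 and 7.72 CPM, and in basal-leaning cells low in follicle genes at 113.5 and 22.9 against 15.1 and 1.21 in the high cells. Of the 94 Il33 UMIs in the low cells, single suffix 2 cells held 31 and 28, and Tslp rested on 19 against 2 UMIs. After thinning, Il33 was seen in 2 of 24 low cells (8.33%) and 3 of 35 high cells (8.57%), too few to decide on a difference. Its unthinned shares were 53.8% and 19.4%.

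Receptors and proteases completed the lists. Of 15 measured receptors, 6 were at least 4-fold higher and 2 lower, beside 7.5% and 13.6% of all measured genes. The lower count was near the share over all genes, so nothing about receptors is read from it. Notch1 at 197 and Fgfr2 at 85.3 CPM were the most abundant, followed by Erbb3 at 69.1 and Fgfr3 at 64.7, while Egfr lay at 60.7 against 61.4. Il1r2 and Il4ra were the lower receptors, at 22.1 and 29.4 against 139 and 151, and the lower count was 4 of 15 within suffix 2 and 1 of 14 without cells over 40000 UMIs. Of 18 measured proteases and inhibitors, 12 were higher and 2 lower, against 9 of 15 higher in suffix 1, 8 of 15 in suffix 2 and 7 of 13 without cells over 40000 UMIs. Serpinb5, maspin, stood at 461 CPM in 62 cells, Serpinb2 at 378 and Cst6, a cystatin of cornifying epithelia, at 346, of which 1 cell held 463 of 942 UMIs.

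MHC class II transcripts were low, although the sort was for high MHC class II. The summed level of H2-Aa, H2-Ab1, H2-Eb1 and Cd74 was 436 CPM (412 to 462), against 31555 in the other kept cells, 1041 in fibroblast-rule and 42279 in macrophage-rule cells. All 7 genes of the class II list were at least 4-fold lower than in the other kept cells, also within each library. The median keratinocyte had 2.50 per 10000, the median fibroblast-rule cell 1.90 and the median macrophage-rule cell 421. After thinning, Cd74 was seen in 25% of keratinocytes (15.3% to 37.0%), in 17.2% of fibroblast-rule cells and in 99.5% of macrophage-rule cells. The interval of the keratinocyte share thus included the fibroblast-rule share. The fibroblast-rule cells are not a clean floor for class II, since the highest of them had 826 class II UMIs per 10000. The level was 592 CPM in suffix 1 and 171 in suffix 2.

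The 3 suffix 1 cells singled out here, after their values were seen, stood apart with over 20 class II UMIs per 10000. They held 4608, 4787 and 5256 UMIs, of which 79, 88 and 87 were Cd74, and reached 422 per 10000. They also held 16, 15 and 12 UMIs of Lyz2, a lysozyme of macrophages, and 7, 3 and 4 of Tyrobp, but no UMI of a C1q gene, and their Krt14 counts were 12, 6 and 13. Whether these barcodes held more than 1 cell was not tested. Without them the class II level was 244 CPM. Class I genes were less far apart, with H2-K1 at 975 against 1321 CPM and B2m at 1023 against 1808, and none of 5 past 4-fold.

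**Figure D5:**
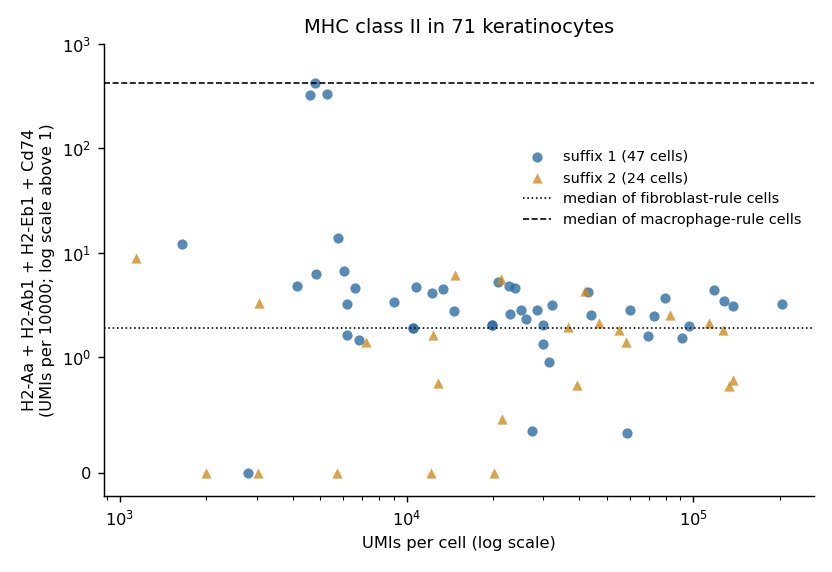
Each point is 1 of 71 keratinocytes, with UMIs per cell on a log axis and summed H2-Aa, H2-Ab1, H2-Eb1 and Cd74 in UMIs per 10000 on a scale that is logarithmic above 1. Lines mark the median fibroblast-rule cell (1.90) and macrophage-rule cell (421); 3 suffix 1 cells lie near the upper line and the others between 0 and 20.

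Immediate early genes were abundant in these digested cells and in the others. Fos stood at 4822 CPM against 1281, Jun at 2364 against 609 and Junb at 2247 against 2107, and of 10 genes of the list 1, Atf3 at 2209 against 545, was past 4-fold. Fos ran from 0 through 29.8 to 220 per 10000. The count was 3 of 10 in suffix 1, 1 of 10 in suffix 2, 4 of 10 without the 3 cells high in Cidea and 2 of 10 without cells over 40000 UMIs. Jun and Atf3 lay at log2 ratios of 1.96 and 2.02, close to the limit of 4-fold. The heat shock gene Hspa1a stood at 223 against 224 CPM.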

How the data were processed

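The deposited file was 1 matrix of UMI counts (32285 genes, 5257 barcodes, 56204601 UMIs) that pooled the 2 droplet libraries. Per the submitters' processing notes the authors made these counts with Cell Ranger 4.0.0 on mm10, from 3′ libraries, and deposited them without normalization. What filter on cells preceded deposit was not given in the sources used here. Suffix 1 held 35821853 UMIs and suffix 2 held 20382748.

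Raw UMIs were summed over cells and scaled to CPM with exact Poisson intervals. Ratios of sums have exact intervals from the Clopper-Pearson method, shares have Clopper-Pearson intervals, and all are at 95% and cover counting error only. A gene was measured in a comparison with at least 20 UMIs over both groups and called at 4-fold. A sum of 0 was set to 3 counts in a ratio, and list medians use that bound. The 5 keratins and 6 limit genes of the rule were left out. The ratio code was tested on simulated data. No p-value was computed because cells are not replicates. The members, the 30 gene lists and the splits were chosen with earlier results of these data known.

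Genes were named by a rule: in each list the 6 with the most UMIs (all in lists of up to 5) and those past 4-fold between layers, the 15 with the highest ratio over the other cells (at least 100 UMIs, in 20% of cells) and the 10 highest in each direction between layers (at least 50 UMIs). Further genes, among them all those of the follicle split, were chosen after their values were seen. Not every gene the rule allows is described, and 2 list genes are not reported here by name but stay in the list counts. Alternatives were limits of the rule and of the filter, doublet removal, depth, library, minimum UMIs and weighting of cells. Doublets were called with Scrublet through scanpy 1.11.5, under Python 3.11.15, numpy 2.4.6, scipy 1.17.1 and pandas 2.3.3. Figures were drawn with matplotlib 3.10.9.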

Additional observations from a re-analysis of the deposited data

Results flagged for a closer look

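Beyond the kept cells, 48 barcodes outside the cell filter also met the keratinocyte rule, a signal in data that the comparisons did not use. Of these, 37 were over the mitochondrial limit, 27 had suffix 1 and 21 suffix 2, and 7 were suprabasal-leaning. Their median depth was 4369 UMIs and their median mitochondrial share 14.1%. Krt14 stood at 3803 CPM in them against 6341 in the 71 keratinocytes, Krt15 at 5324 against 3451, Krt10 at 1770 against 3030 and Krt17 at 991 against 2055. Lgals7 at 6718 against 6857 CPM and Sox9 at 366 against 411 were closer, and Cd74 stood at 121 against 192. Sfn was lower, at 1517 against 4186.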

How the results depend on the processing

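Of 79 values recomputed under other settings, 58 stayed within 1.5 times the main count, or, for a share or level, within the main value's interval. Removal of Scrublet-marked cells and a collagen limit of 20 per 10000 left the same 71 cells. A C1q limit of 5 per 10000 left 70. Values under these settings could hardly move, and they count among the 58. The number of keratinocytes was 16 with a mitochondrial limit of 5%, 47 in suffix 1 and 24 in suffix 2, and at most 93 under any setting. The suprabasal-leaning share was 25% with the 5% limit. Genes higher in keratinocytes numbered 669 in suffix 2, and genes lower 1197 with the 5% limit. Genes higher in suprabasal-leaning cells numbered 133 without cells over 40000 UMIs, 106 in suffix 2 and 129 with at least 50 UMIs. Genes higher in basal-leaning cells numbered 214 with the 5% limit, 297 without cells over 40000 UMIs, 248 in suffix 2 and 1301 as a mean over cells.

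The MHC class II level, 436 CPM over all 71 cells, was 244 CPM with a keratin limit of 100 per 10000, 243 with the 5% limit and 405 with a 20% limit. It was 983 CPM without cells over 40000 UMIs, 592 in suffix 1, 171 in suffix 2 and 1796 as a mean over cells. Without the 3 cells high in these genes, chosen after the data were seen, it was 244 CPM. The 3 cells are shallow, so weighting cells equally or dropping deep cells gives them more weight.

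No paired analysis was possible because each age had 1 library and no suffix is tied to an age. The 22 cells over 40000 UMIs held 73.5% of all UMIs of the 71 cells, but 40.3% of the class II UMIs. Genes with few UMIs, such as Ivl and Lor, can be described only by wide intervals.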

Other observations

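Cell cycle transcripts were uneven among the keratinocytes, with a lowest, median and highest cell of 0, 1.28 and 31.5 per 10000 for the list. Mki67, a marker of dividing cells, had 45 UMIs in 10 cells, none of them suprabasal-leaning, at 25.1 CPM in suffix 1 and 1.98 in suffix 2. Top2a, the topoisomerase of dividing cells, had 99 UMIs in 21 cells. Beside 7.5% of all measured genes, 3 of 10 genes of the list were at least 4-fold higher than in the other kept cells. All 3 were higher in suffix 1, and none was higher and 1 lower of 9 in suffix 2. The 3 higher genes were Cenpf at 31.3 against 2.99 CPM, Ube2c at 37.1 against 7.32 and Cdk1 at 15.1 against 3.41. A single cell held 50 of the 85 Cenpf UMIs.

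Keratins of stressed and growing epidermis were patchy. Krt6a stood at 101 CPM in 19 cells, with 41.5 in suffix 1 and 202 in suffix 2, and Krt16 at 346 CPM in 25 cells, with 178 and 631. The small proline-rich gene Sprr1a stood at 189 CPM. The neutrophil-associated S100a8 and S100a9 had 2 and 0 UMIs. Of 7 measured genes of the list 5 were higher and 2 lower, beside 7.5% and 13.6% of all measured genes. Hair shaft and inner sheath keratins were almost missing, with 6 of 14 genes at 0 UMIs, and Gata3, Hoxc13 and Msx2 were the 3 measured genes.

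Melanocyte genes appeared in few keratinocytes. Dct, an enzyme of melanin synthesis, had 274, 30, 13, 12 and 1 UMIs in 5 cells, all in the range high in follicle genes, beside 952, 774, 98, 983 and 436 UMIs of Krt14. Of 4 measured melanocyte genes 3 were at least 4-fold higher than in the other kept cells, beside 7.5% of all measured genes. The count was 0 of 4 without cells over 40000 UMIs. Pmel and Tyrp1 each also had 1 UMI in a cell low in follicle genes. Whether those barcodes held more than 1 cell was not tested.

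T cell genes were few. A single cell of 10530 UMIs held 8 UMIs of Cd3g, 8 of Cd2, 5 of Trac and 3 of Cd3e beside 99 of Krt15. Trbc2, a T cell receptor constant gene, had 103 UMIs in 23 cells and stood at 200 CPM in suprabasal-leaning against 22.6 in basal-leaning cells (log2 ratio 3.15, 2.56 to 3.73), also past 4-fold within each library. The Cd3e, Cd3g, Cd3d and Trac counts in the suprabasal-leaning cells were 0. The source of the Trbc2 UMIs was not tested.

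Markers of other cell types varied by list, beside 7.5% of all measured genes at least 4-fold higher and 13.6% at least 4-fold lower. Of the fibroblast markers 8 of 10 were at least 4-fold lower than in the other kept cells, and 163 of the 191 Dcn UMIs came from 1 cell. All 7 endothelial markers were lower, as were 4 of 5 mural markers. Of 5 Schwann markers 1 was lower and none higher, which is near the general share, so nothing is read from it. Of the Langerhans cell markers 4 of 5 were lower, with 4 UMIs of Cd207, and Cd24a, at 177 against 43.5 CPM, was higher. In suffix 2 the lower count was 2 of 5, and Cd24a was short of 4-fold in suffix 1 and without the 3 cells high in Cidea. Of the Merkel cell markers Krt20 and Atoh1 had 0 UMIs, while Krt8, at 15.8 against 0.104 CPM, was higher, with 43 UMIs in 7 cells.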
